A study of Homo sapiens with 8 samples.

Results

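ATF4, ATF3, ATF5, DDIT3, TRIB3, PPP1R15A, CEBPB, CEBPG, NUPR1 and VLDLR are regulators and targets of the integrated stress response, and they are described here in RPE-1 cells exposed to all-trans-retinal and extracellular vesicles. They were chosen by gene symbol with earlier results of these data known, and all 10 were found among the 46427 genes of the expression table. All 10 were among the 17044 genes with enough counts to be tested. RPE-1 is a human line from retinal pigment epithelium, immortalised with telomerase. All-trans-retinal (atRAL), the aldehyde that light releases from visual pigment, was given at 25 µM. The extracellular vesicles (EV), membrane particles released by tonsil mesenchymal stem cells, were given at 2000000000 particles per ml. At 1 h and at 6 h there was 1 library each of untreated control cells, EV alone, atRAL alone and atRAL with EV, and 2500000 cells were treated in each condition.

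In the integrated stress response, kinases that sense stress phosphorylate the initiation factor eIF2, which slows translation in general while the mRNA of the transcription factor ATF4 is translated more. ATF4 then switches on genes of amino acid supply, further transcription factors such as DDIT3 (which encodes CHOP) and ATF3, and inhibitors that close the loop. Retinal pigment epithelium handles retinaldehyde every day as part of the visual cycle, and free atRAL is reactive and toxic to these cells.

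The libraries held 45566237 to 71822269 counts. Levels are given as CPM, the count scaled to a common library size with TMM factors, on which a floor of 3 counts equals 0.0408 to 0.0657. No condition was repeated and the labels name no separate cultures, so the p-values rest on differences among these libraries alone, which may be technical. Markers of mature retinal pigment epithelium were low: TYR and TTR had no count in any library, RPE65 reached 0.122 CPM at most, and MITF (28.4 to 43.9 CPM) and OTX2 (13 to 38.4 CPM) were present. Epithelial markers were mixed: the keratin genes KRT8 and KRT18 stood at 606 to 803 and 352 to 522 CPM, and CDH1 and EPCAM did not pass 0.113 and 0.0701 CPM. The 6 mesenchymal markers summed to 38400 to 42200 CPM, most of it from FN1 (31800 to 34700 CPM) and VIM (4570 to 5960 CPM). NT5E read 633 to 1050, THY1 282 to 383, COL1A1 118 to 208 and PDGFRB 55.2 to 120 CPM. Of 3 immune markers, PTPRC and CD3E did not pass 0.177 and 0.0285 CPM, and CD68 stood at 87.6 to 97.1 CPM.

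Of the 10 genes, 9 had a promoter in the RefSeq table (GRCh38.p14), and 3 of these held one of the 4 stress-related motifs searched on both strands in the 250 bases before the annotated start. These stretches are shown because each carries such a motif, which is in capitals, and because the genes differ in how they followed atRAL and EV. Bases are numbered from the start, and each stretch is written on the gene's own strand. The CEBPG stretch, chr19:33373983-33374082 on the plus strand, holds TGATGNAA, a C/EBP-ATF composite motif, at bases -42 to -35.
CEBPG: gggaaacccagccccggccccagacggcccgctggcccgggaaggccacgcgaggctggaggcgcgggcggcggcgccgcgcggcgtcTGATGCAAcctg
The PPP1R15A stretch, chr19:48872291-48872390 on the plus strand, holds TNACGTCA, a motif of cyclic AMP response elements, at bases -58 to -51, read on both strands because it is a palindrome there.
PPP1R15A: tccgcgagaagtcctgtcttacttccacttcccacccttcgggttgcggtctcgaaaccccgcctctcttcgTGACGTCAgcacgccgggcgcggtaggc
The DDIT3 stretch, chr12:57520744-57520767 on the minus strand, holds TGANTCA, the AP-1 motif, at bases -238 to -232.
DDIT3: cgcgcgcgcgcaTGACTCAcccac
Over 35116 promoters, the same length held TGATGNAA in 3.14%, TNACGTCA in 2.67% and TGANTCA in 6.57%. The fourth, the endoplasmic reticulum stress element (CCAAT, then 9 bases of any kind, then CCACG), was in 0.074% of promoters and in none of the 9. For ATF4, ATF3, ATF5, CEBPB, CEBPG and TRIB3 the promoter in the table belongs to a start inside the annotated gene span, so the CEBPG motif also lies within that span, and other starts of these genes were not searched. A match is a string of letters and not evidence of binding.

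The level of each gene in each library was read first. ATF4, at chr22:39520559-39522686, encodes the main transcription factor of the response. Its level was 331, 356, 360 and 381 CPM at 1 h in control, EV, atRAL and atRAL with EV cells, and 188, 184, 824 and 691 CPM at 6 h in the same order. Both atRAL libraries of 6 h lay above all the others, and both 6 h libraries without atRAL lay below all those of 1 h. On the FPKM scale, which divides by transcript length and so lets genes be compared, ATF4 was the most abundant of the 10 in every library, from 92 FPKM with EV at 6 h to 434 FPKM with atRAL at 6 h.

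**Figure D1:**
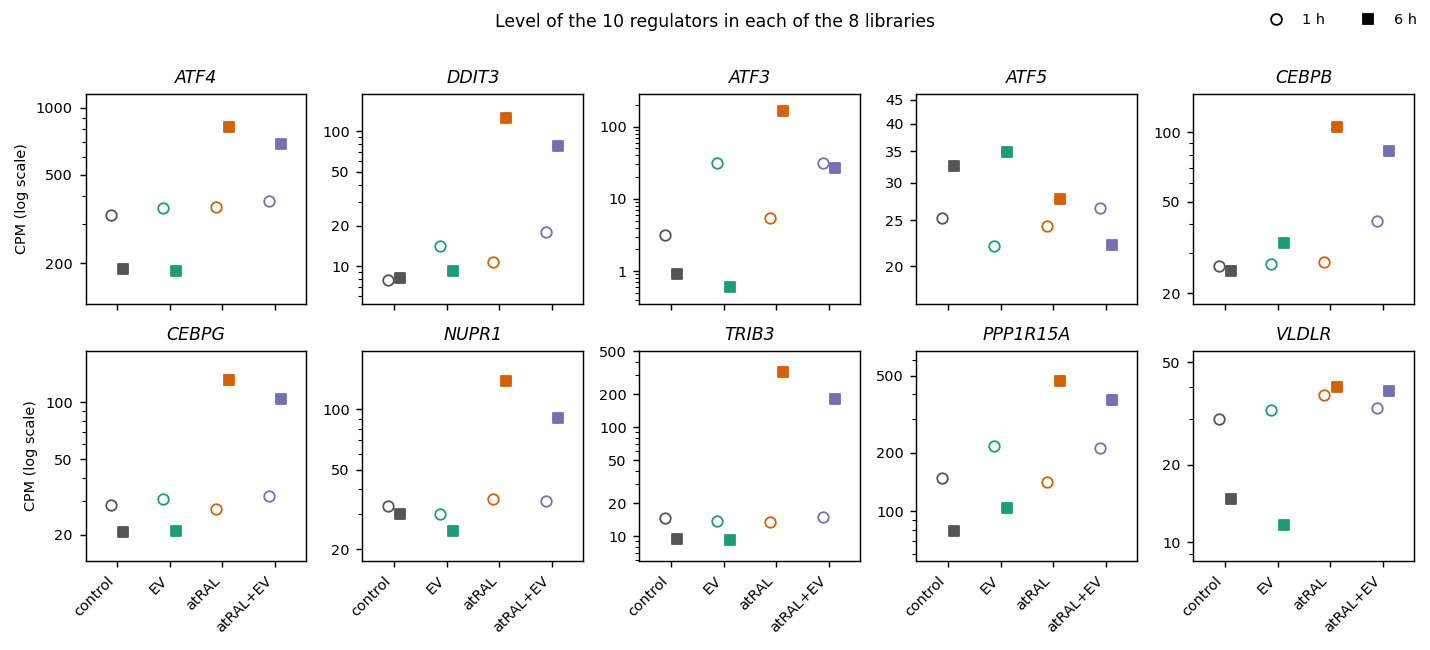
Level of each of the 10 genes, as TMM-scaled CPM on a log axis whose range differs between panels, in the control, EV, atRAL and atRAL with EV libraries at 1 h (open circles) and 6 h (filled squares). Each point is 1 library. For 8 of the genes both 6 h atRAL libraries lie highest; ATF3 is also raised in both EV libraries of 1 h (31.7 CPM in each), and ATF5 varies only 1.57-fold.

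In the control cells of 6 h the order by FPKM after ATF4 (99.3) was PPP1R15A (30.3), ATF5 (14.1), CEBPB (12.4), DDIT3 (7.57), NUPR1 (5.2), CEBPG (5.06), TRIB3 (3.51), VLDLR (1.47) and ATF3 (0.398). With atRAL alone at 6 h it was PPP1R15A (174), DDIT3 (118), TRIB3 (115), ATF3 (66), CEBPB (49.9), CEBPG (30.8), NUPR1 (22.9), ATF5 (11.6) and VLDLR (4.36), again after ATF4. ATF3 moved from the last place to the fifth and TRIB3 from the eighth to the fourth, whereas ATF5 fell from the third place to the ninth. Close neighbours such as NUPR1 and CEBPG in control cells, or DDIT3 and TRIB3 with atRAL, cannot be ordered, since each condition has 1 library and no spread of its own. Over the 8 libraries the highest level exceeded the lowest 274-fold for ATF3, 35-fold for TRIB3 and 16-fold for DDIT3 on the CPM scale, and 3.41-fold to 6.33-fold for the other members apart from ATF5, at 1.57-fold.

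The first comparison asked what atRAL did to these genes at 6 h. Of the 10, 9 were higher and 1, ATF5, was lower (edgeR's quasi-likelihood test with Benjamini-Hochberg adjustment over all tested genes, adjusted p under 0.05), where 30.2% of all tested genes passed (15.9% higher and 14.2% lower). The test set the 2 atRAL libraries of 6 h against the 2 without, allowing for EV. The median log2 fold change of the 10 was 2.12, against -0.00811 for all tested genes. In bulk RNA, a change in the cells that survive or in their mix and a change in RNA per cell cannot be told apart.

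ATF4 mRNA rose 4.05-fold with atRAL at 6 h, a log2 fold change of 2.02 ± 0.0833 (SE; 2 libraries against 2; edgeR adjusted p = 1.8e-05). The CHOP gene DDIT3, a bZIP factor (a class that binds DNA as dimers) linked to cell death under lasting stress, lies at chr12:57516588-57520517. Its 6 h levels were 8.22 CPM in control, 9.2 with EV, 126 with atRAL and 77.4 with atRAL and EV. DDIT3 thus rose 11.4-fold (3.50 ± 0.217 on the log2 scale, edgeR adjusted p = 0.00041), and the 2 groups of libraries did not overlap.

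ATF3, at chr1:212565407-212620777, is a bZIP factor induced by many stresses and often a repressor. It had 66 counts in control and 43 with EV at 6 h, but 10199 with atRAL and 1660 with atRAL and EV, which correspond to 0.897, 0.602, 165 and 26.8 CPM. Its rise, 6.77 ± 0.615 on the log2 scale (109-fold, edgeR adjusted p = 0.0088), was the greatest fitted change of the 10 and also had the widest SE, since the atRAL libraries themselves stood 6.14-fold apart. With the EV terms left out of the model its adjusted p was 0.077.

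CEBPG encodes a short bZIP factor that pairs with ATF4. At chr19:33373709-33382686, it read 20.7, 20.8, 131 and 104 CPM at 6 h in control, EV, atRAL and atRAL with EV cells. It rose 5.63-fold (2.49 ± 0.103, edgeR adjusted p = 1.8e-05). CEBPB, a related factor active in inflammation and differentiation, at chr20:50190583-50192690, read 25.1, 33.1, 105 and 83.1 CPM and rose 3.24-fold (1.70 ± 0.23, edgeR adjusted p = 0.0079).

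ATF5, a bZIP factor tied to mitochondrial stress, lies at chr19:49928906-49933935. At 6 h it read 32.5 and 34.8 CPM without atRAL and 27.7 and 22.2 CPM with it, in each case first without EV. The 1 h values of 22.1 to 26.6 CPM overlapped the atRAL values. The fitted change was -0.44 ± 0.125 (edgeR adjusted p = 0.033), a level 1.36-fold lower. This call was lost when any 1 of the 4 libraries of 1 h was left out (edgeR adjusted p 0.053 to 0.054), when either of the 6 h libraries with EV was left out (-0.23, edgeR adjusted p = 0.22) and with no filter on low counts (edgeR adjusted p = 0.062).

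NUPR1 encodes a small chromatin-associated protein induced by stress. Its level at 6 h was 30.1 and 24.8 CPM without atRAL, 138 with atRAL and 90.2 with atRAL and EV, a rise of 4.09-fold (2.03 ± 0.0984, edgeR adjusted p = 2.5e-05). VLDLR encodes a receptor that takes up triglyceride-rich lipoproteins. It read 14.7 and 11.7 CPM without atRAL and 39.9 and 38.6 CPM with it, 2.99-fold apart (1.58 ± 0.11, edgeR adjusted p = 9.8e-05). The VLDLR values with atRAL at 6 h were close to those of 1 h (30.1 to 37.2 CPM over 4 libraries), and the values without atRAL were the ones that stood apart.

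TRIB3 and PPP1R15A act as brakes. TRIB3, at chr20:380760-397559, encodes a pseudokinase that binds ATF4 and CHOP and lowers their activity. Its level was 13.4 to 15 CPM in the 4 libraries of 1 h, 9.47 and 9.21 CPM without atRAL at 6 h, 322 with atRAL and 182 with atRAL and EV. The rise was 26-fold (4.70 ± 0.216, edgeR adjusted p = 2e-04). PPP1R15A, at chr19:48872421-48876058, encodes GADD34, which brings protein phosphatase 1 to eIF2 and removes the phosphate that started the response. It read 78.8, 104, 471 and 374 CPM at 6 h in control, EV, atRAL and atRAL with EV cells and rose 4.63-fold (2.21 ± 0.177, edgeR adjusted p = 0.00083).

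**Figure D2:**
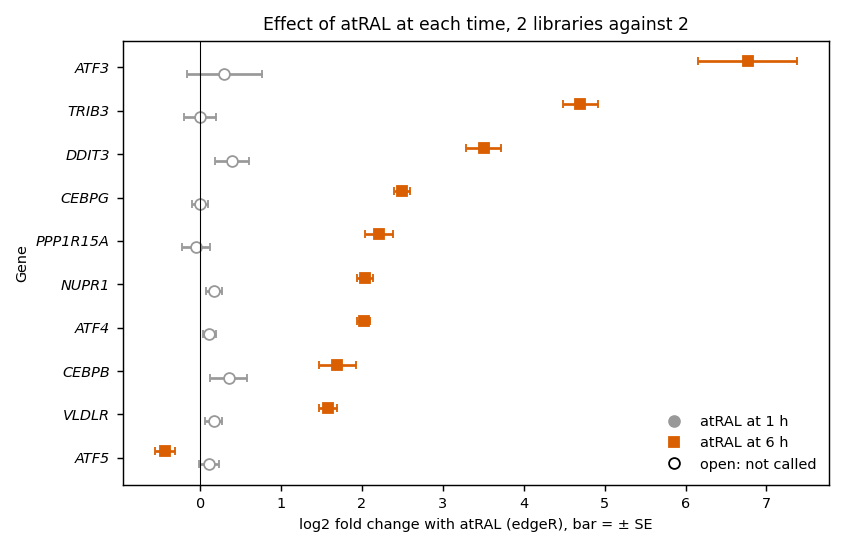
Log2 fold change with atRAL for each gene at 1 h (grey circles) and 6 h (orange squares), 2 libraries against 2. Bars are ± 1 SE, derived from edgeR's F statistic, and open symbols did not pass an adjusted p of 0.05. At 1 h the 10 values lie between -0.0557 and 0.387, and at 6 h 9 of them lie between 1.58 and 6.77, with ATF5 at -0.44.

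At 1 h atRAL moved none of the 10 past the threshold, where 0.00587% of all tested genes (1 gene) passed in edgeR. No member had an unadjusted p under 0.05 there, and over all genes 323 did, 24 were called by DESeq2 and 0 by limma-voom. The log2 fold changes of the 10 ran from -0.0557 to 0.387 with a median of 0.136, and 7 were above 0.

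Whether the atRAL effect differed between the times was tested directly. It was greater at 6 h for 8 of the 10 genes, where 13.4% of all tested genes passed (7.98% upward). In that test TRIB3 differed by 4.70 ± 0.285 on the log2 scale (edgeR adjusted p = 0.0015), CEBPG by 2.50 ± 0.141 and ATF4 by 1.91 ± 0.114 (edgeR adjusted p = 0.00022 for both). NUPR1 differed by 1.86 ± 0.137 (edgeR adjusted p = 0.00054) and VLDLR by 1.41 ± 0.152 (edgeR adjusted p = 0.0017). ATF5 (-0.54 ± 0.178, edgeR adjusted p = 0.087) and CEBPB (1.34 ± 0.322, edgeR adjusted p = 0.066) did not pass. With 1 library left out, the atRAL effect at that time rests on 1 library against 1, and the spread comes from the other time alone. Fitted so, CEBPB was at 0.975 to 1.71 without any 1 library of 6 h. ATF5 was at -0.755 without the 6 h control or the 6 h atRAL library. VLDLR was at 1.266 without either 1 h library with EV and lost its call. DDIT3 (3.12 ± 0.296, edgeR adjusted p = 0.0043), ATF3 (6.47 ± 0.776, edgeR adjusted p = 0.032) and PPP1R15A (2.27 ± 0.243, edgeR adjusted p = 0.0054) passed with all 8 libraries. Without any 1 library of 1 h these 3 calls were lost, with edgeR adjusted p of 0.058 to 0.075 for DDIT3, 0.13 to 0.2 for ATF3 and 0.069 to 0.078 for PPP1R15A.

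Part of the 6 h contrast lay in cells that had no atRAL. Between 1 h and 6 h without atRAL, 2 of the 10 genes, ATF4 and VLDLR, were lower, where 0.158% of all tested genes passed (0.129% lower). ATF4 went from 331 and 356 CPM to 188 and 184 CPM, a change of -0.885 ± 0.106 on the log2 scale (edgeR adjusted p = 0.048). VLDLR went from 30.1 and 32.6 CPM to 14.7 and 11.7 CPM, a change of -1.25 ± 0.134 (edgeR adjusted p = 0.027). For both genes the 2 times did not overlap, and both calls were lost without any 1 of the 4 libraries that had no atRAL, with edgeR adjusted p of at least 0.22.

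The fall of ATF4 was narrower in FPKM, from 119 and 167 to 99.3 and 92, and neither gene was called on the FPKM scale. ATF3, not called, read 3.16 and 31.7 CPM at 1 h and 0.897 and 0.602 CPM at 6 h without atRAL. PPP1R15A read 148 and 217 CPM at 1 h and 78.8 and 104 CPM at 6 h (-0.985 ± 0.212, edgeR adjusted p = 0.15). CEBPG was at -0.53 ± 0.144 and ATF5 at 0.51 ± 0.143, both with edgeR adjusted p = 0.19. These 3 passed when any 1 of the 4 atRAL libraries was left out. The spread then comes from the libraries without atRAL alone, so those fits repeat one another. Set against its own level at 1 h, the 6 h atRAL library held 2.29-fold more ATF4 and 24-fold more TRIB3, and for VLDLR the ratio was 1.07, each as 1 library against 1 with no test.

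The next comparison asked what EV did at 1 h. None of the 10 passed the edgeR threshold, where 0.205% of all tested genes did (35 genes, and 771 at an unadjusted p under 0.05). Of the 10, 3 (ATF3, DDIT3 and PPP1R15A) had an unadjusted p under 0.05. DESeq2 called 2 of them (ATF3 and DDIT3), among 107 genes in all, and limma-voom called 1 (ATF3). ATF3 had 180 counts in control and 1842 with EV, and 247 with atRAL and 2227 with atRAL and EV. Both libraries with EV read 31.7 CPM, against 3.16 and 5.41 CPM without, and did not overlap them.

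The fitted difference of ATF3 with EV at 1 h was 2.93 ± 0.482 on the log2 scale (7.6-fold, edgeR adjusted p = 0.55). DDIT3 read 7.85 and 14.2 CPM without and with EV in cells free of atRAL, and 10.7 and 17.9 CPM in atRAL cells (0.80 ± 0.211, edgeR adjusted p = 0.66). PPP1R15A read 148 and 217, then 141 and 211 CPM (0.56 ± 0.17, edgeR adjusted p = 0.8). All 3 were higher with EV in both pairs, DDIT3 by 1.81-fold and 1.67-fold and PPP1R15A by 1.46-fold and 1.49-fold, without and with atRAL.

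The 8-library model shares 1 spread per gene over both times. When the 4 libraries of 1 h were fitted alone, the same 3 members passed in edgeR, ATF3 at 2.92 ± 0.175 (adjusted p = 4e-04), DDIT3 at 0.80 ± 0.0942 (adjusted p = 0.0073) and PPP1R15A at 0.56 ± 0.0639 (adjusted p = 0.006), among 134 genes in all. That fit has 1 residual degree of freedom. Leaving out any 1 library of 6 h from the 8-library model brought the 3 past the threshold too. The spread then comes from the 4 libraries of 1 h alone, so those fits repeat this one and add no further support.

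Read as single pairs, ATF3 was the 1 member at least 2-fold higher with EV at 1 h both without atRAL, where 0.523% of genes with at least 100 counts were, and with atRAL, where 0.58% were. The ratio was 9.96-fold without atRAL (log2 3.317, 95% counting interval 3.108 to 3.559) and 5.84-fold with it (log2 2.545, interval 2.362 to 2.747). CEBPB was 1.03-fold higher with EV without atRAL and 1.51-fold higher with it. Counting intervals cover counting error only.

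The bZIP genes outside the 10 were read in the same test. Of 25 tested partners of ATF4 and CHOP, 2 rose with EV at 1 h, where 0.205% of all tested genes passed, with a list median of 0.232 against -0.001 for all genes. They were JUNB (2.17 ± 0.172 on the log2 scale, edgeR adjusted p = 0.016) and MAFF (0.93, edgeR adjusted p = 0.0086). TRIB1, a relative of TRIB3, rose by 1.29 (edgeR adjusted p = 0.024). JUNB encodes an AP-1 subunit and MAFF a small MAF factor. FOS, not called, read 2.19 CPM in control and 41.3 with EV at 1 h, and 5.32 with atRAL and 48.7 with atRAL and EV. JUN read 142 and 437, then 128 and 386 CPM in the same order. It was not called either (1.61 ± 0.259, edgeR adjusted p = 0.38). All the genes named in this paragraph were named after their values were seen.

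**Figure D3:**
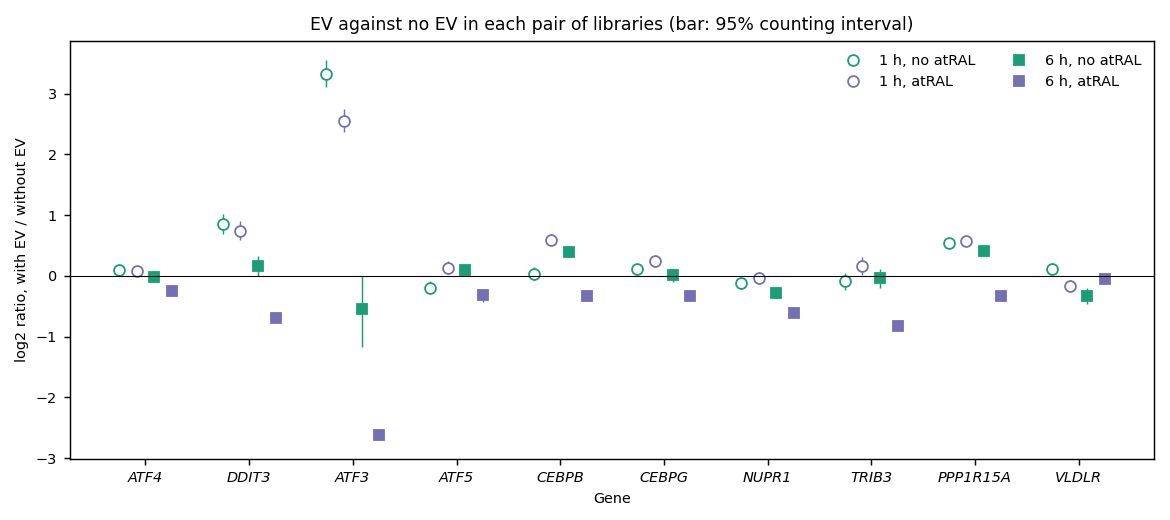
Log2 ratio of the library with EV to the library without, for each gene, at 1 h (open circles) and 6 h (filled squares), without atRAL (green) and with it (purple); bars are 95% counting intervals and each point is 1 library against 1. ATF3, DDIT3 and PPP1R15A lie above 0 in both pairs of 1 h, and all 10 genes lie below 0 in the 6 h pair with atRAL.

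At 6 h EV moved none of the 10 past the edgeR threshold over both pairs of libraries, where 1.7% of all tested genes passed (290 genes, 186 higher and 104 lower; with upper-quartile scaling 149 and 149). At an unadjusted p under 0.05 there were 2 members, ATF3 and NUPR1, and 3175 genes. DESeq2 called 1 member (NUPR1), among 708 genes in all, and limma-voom 1 (ATF3). The log2 fold changes of the 10 ran from -2.23 to 0.0346, with ATF3 at -2.23 ± 0.554 (edgeR adjusted p = 0.19), TRIB3 at -0.48 ± 0.192 (edgeR adjusted p = 0.28) and NUPR1 at -0.45 ± 0.0954 (edgeR adjusted p = 0.06).

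The pair of atRAL libraries and the pair without atRAL differed. With atRAL, all 10 genes were lower in the library with EV, by a median log2 ratio of -0.336 against 0.002 for all genes. Without atRAL, 5 were lower and 5 higher. These are ratios of 1 library to 1, so they carry no p-value, and a difference between these libraries cannot be told apart from an effect of EV.

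ATF3 was the 1 member that was at least 2-fold lower with EV among atRAL cells, where 1.65% of genes were. It read 165 CPM with atRAL and 26.8 CPM with atRAL and EV (log2 ratio -2.619, counting interval -2.696 to -2.545). The 26.8 CPM were still far above the 0.602 CPM of EV alone at 6 h. TRIB3 was 1.77-fold lower (322 and 182 CPM, log2 ratio -0.822), DDIT3 1.63-fold (126 and 77.4 CPM, -0.701) and NUPR1 1.53-fold (138 and 90.2 CPM, -0.614).

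ATF4 itself was 1.19-fold lower (log2 ratio -0.253, counting interval -0.272 to -0.235), and ATF5, CEBPB, CEBPG and PPP1R15A were 1.25-fold to 1.26-fold lower. VLDLR was 1.04-fold lower, and its counting interval, -0.132 to 0.031, includes 0. Without atRAL, PPP1R15A was 1.33-fold and CEBPB 1.32-fold higher with EV, and no member passed 2-fold, where 1.06% of genes did.

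The response to atRAL at 6 h was then read separately without and with EV. Of the 10 genes, 9 were at least 2-fold higher with atRAL in both pairs, where 5.57% of genes were without EV and 3.29% with it. The log2 response of ATF3 was 7.47 without EV and 5.40 with it, that of TRIB3 5.08 and 4.30, that of DDIT3 3.93 and 3.07, and that of PPP1R15A 2.58 and 1.84. CEBPB kept the smallest share of its log2 response (64.4%, from 2.06 to 1.33), and ATF4 and CEBPG kept 89.4% and 87.2%. Part of the CEBPB difference lay in cells without atRAL, which read 33.1 CPM with EV and 25.1 CPM without. Among atRAL cells CEBPB and CEBPG were both 1.26-fold lower with EV. VLDLR was the exception among the genes that rose, with 1.44 without EV and 1.72 with it. ATF5 was lower with atRAL in both pairs, by -0.232 and -0.648.

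**Figure D4:**
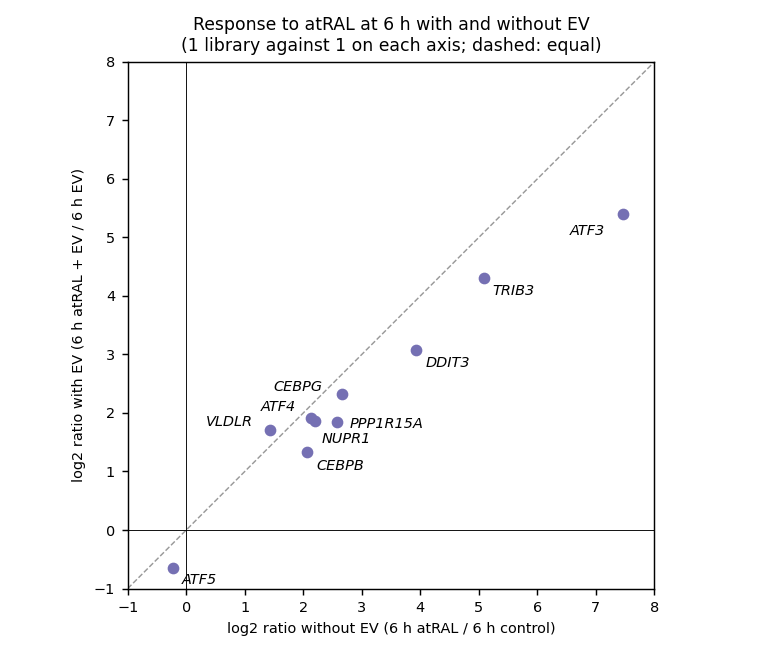
Log2 ratio with atRAL against without at 6 h, in cells without EV (horizontal) and with EV (vertical), 1 point per gene and 1 library against 1 on each axis; the dashed line marks equal responses. Except for VLDLR (1.44 and 1.72), the genes lie below the line, ATF3 farthest (7.47 and 5.40).

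Direct tests of EV in atRAL cells over both times, and of whether that effect differed from the one without atRAL, called none of the 10. Each called 0% of the tested genes in edgeR, with 531 and 194 genes at an unadjusted p under 0.05 and no member among them. DESeq2 called 14 genes in the first of these tests and 0 in the second, and limma-voom called 0 in the second. The log2 fold changes of the 10 ran from -0.356 to 0.122 in the first test and from -2.18 to -0.00616 in the second. Both tests average the 1 h and 6 h pairs, so neither tests the pairs of 6 h by themselves. For ATF3 the 1 h and 6 h pairs lay on opposite sides of 0, at 2.545 and -2.619 with atRAL. Without atRAL they were at 3.317 and -0.551.

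The difference of the EV effect between 6 h and 1 h, a comparison added after the values were seen, was below 0 for all 10 genes, from -5.16 to -0.0775. None of the 10 passed in edgeR, where 0.211% of all tested genes did. There were 4 members and 2068 genes at an unadjusted p under 0.05. ATF3 had -5.16 ± 0.742 (edgeR adjusted p = 0.22), DDIT3 -1.11 ± 0.292 (edgeR adjusted p = 0.28) and PPP1R15A -0.53 ± 0.24 (edgeR adjusted p = 0.46). DESeq2 called ATF3 (-4.59, adjusted p = 0.00098) and DDIT3 (adjusted p = 0.0073) among 211 genes in all. Of 16 genes called by limma-voom, ATF3 was 1 (adjusted p = 0.02). Without the 6 h control or the 6 h EV library all 3 passed in edgeR (ATF3 at -5.54, DDIT3 at -1.498, PPP1R15A at -0.894), and without the 6 h atRAL library ATF3 passed at -3.50 (edgeR adjusted p = 0.037). Without either 6 h library with atRAL, which leaves the pair free of atRAL, DDIT3 was at -0.635 and PPP1R15A at -0.156. ATF3 did not pass without the 6 h atRAL with EV library (-3.497, edgeR adjusted p = 0.079), and over all 8 libraries left out in turn the highest adjusted p was 0.84 for ATF3 and DDIT3 and 0.85 for PPP1R15A.

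The genes around these regulators were read in 9 lists with atRAL at 6 h, against the same background of 30.2%. Like the members, the lists were chosen with earlier results of these data known, so their counts are a description and not independent support. Upstream, of 4 eIF2 kinase genes, EIF2AK3 (PERK, the kinase of the endoplasmic reticulum) rose by 0.93 on the log2 scale (edgeR adjusted p = 0.00034). It read 30.9 CPM in control, 32.4 with EV, 61.1 with atRAL and 59.4 with atRAL and EV. EIF2AK4 (GCN2, the sensor of uncharged tRNA) fell by 0.52 (edgeR adjusted p = 0.003), and the other two did not pass.

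Of 8 subunits of eIF2 and eIF2B, EIF2S2 (1.13) and EIF2S3 (0.41) rose and EIF2B1 (-0.33) fell. Among 6 phosphatase partners and mitochondrial relay genes, PPP1R15B, the constitutive relative of PPP1R15A, rose by 0.76 (edgeR adjusted p = 0.00068) and PPP1CB, a catalytic subunit of protein phosphatase 1, by 0.34. OMA1, the mitochondrial protease at the head of that relay, fell by 0.67 (edgeR adjusted p = 0.011). The medians of these 3 upstream lists lay between -0.074 and 0.078.

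Of the 25 other bZIP genes tested, 11 rose and 1 fell, with a median of 0.451. JDP2, a repressor of AP-1 sites, went from 4.01 and 3.07 CPM to 38.4 and 27.1 CPM (3.20 ± 0.116, edgeR adjusted p = 1.2e-05). NFIL3 (2.52), JUND (1.94) and MAFF (1.79) rose too, and DBP, a clock output factor, fell by 0.90. FOS had the greatest fitted change of this list, 5.51 ± 1.09, but did not pass (edgeR adjusted p = 0.068). Its 6 h levels were 1.13 CPM in control, 0.742 with EV, 111 with atRAL and 8.14 with atRAL and EV.

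Of 24 ATF4 targets of amino acid supply tested, 23 rose and none fell, with a median of 1.852. CTH (5.60), of cysteine synthesis, ASNS (3.25, edgeR adjusted p = 5.7e-06), of asparagine synthesis, SLC7A11 (3.02), the cystine importer, and PSAT1 (2.76), of serine synthesis, had the greatest changes, and ALDH1L2 (0.90, edgeR adjusted p = 0.29) did not pass.

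Of 10 ATF4 targets of growth restraint and secretion, 9 rose, with a median of 4.28 that stayed at 4.28 with ADM2 at its bound. ADM2 had no count in either 6 h library without atRAL and 55 and 47 counts with it, at least 21.8-fold higher with atRAL alone when the control library is set to the 3-count floor. INHBE, an inhibin subunit, read 0 and 0.056 CPM without atRAL and 15.9 and 5.68 CPM with it. CHAC1, which degrades glutathione, rose by 6.17 and GDF15, a secreted stress signal, by 4.52 ± 0.332 (edgeR adjusted p = 0.00012), whereas STC2 was at -0.03 and did not pass.

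Of 10 genes linked to CHOP in cell death and redox balance, 4 rose and 1 fell, with a median of 0.221. The genes that rose were PMAIP1 (2.54) and BBC3 (1.44), which promote apoptosis, GADD45A (1.40), a growth arrest gene, and the death receptor TNFRSF10B (0.72). The anti-apoptotic gene BCL2 fell by 0.77. Among the genes of this list that did not pass were ERO1A (0.03, edgeR adjusted p = 0.87), CHAC2 (-0.59, edgeR adjusted p = 0.068) and BCL2L11 (0.28, edgeR adjusted p = 0.3). Of 7 relatives of TRIB3 and VLDLR tested, none rose, and LRP5 (-0.64) and LRP6 (-0.33), coreceptors of Wnt, fell. Those 2 of 7 are near the 30.2% of all tested genes that passed.

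Of 12 markers of the other branches of the endoplasmic reticulum response, 4 rose and 4 fell, with a median of 0.002. ERN1 (2.02), which encodes IRE1, XBP1 (1.52), its splicing target, HERPUD1 (1.44) and DNAJB9 (0.71) rose, and the chaperone-related genes SDF2L1 (-1.12), DNAJC3 (-0.34), PDIA4 (-0.30) and HYOU1 (-0.24) fell. HSPA5, the main chaperone of the endoplasmic reticulum, was at 0.06 (edgeR adjusted p = 0.69). With atRAL at 1 h no gene of the 9 lists passed.

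**Figure D5:**
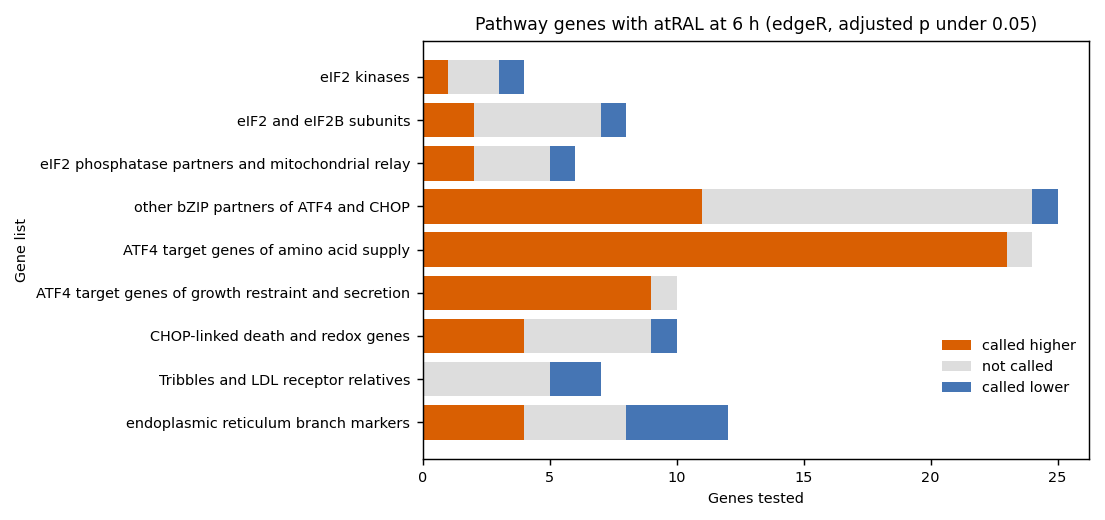
Number of genes tested in each of the 9 pathway lists (horizontal) that were higher (orange), lower (blue) or not called (grey) with atRAL at 6 h, by edgeR at an adjusted p under 0.05. In the amino acid supply list 23 of 24 genes were higher, where 15.9% of all tested genes were. Among relatives of TRIB3 and VLDLR none of 7 was, too few genes to set apart from that share.

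Across the 8 libraries the members differed in how alike their patterns were. These are Pearson correlations of log2 CPM over the same 8 libraries, which share their layout of time and treatment, and they are given as a description. CEBPG and TRIB3 were most alike (0.994), then NUPR1 and TRIB3 (0.99). PPP1R15A was closer to ATF4 (0.967) and ATF3 (0.929) than TRIB3 was (0.905 and 0.733). VLDLR had 0.863 with ATF4 and 0.46 with CEBPB, and ATF5 was below 0 with all 9 others, from -0.855 with VLDLR to -0.169 with CEBPB.

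By the same measure, the 3 most alike of 11374 other genes were found for each member. For TRIB3 these were GPT2, DRAM1 and AIFM2 (0.998 each), and for CEBPG they were SESN2, BNIP2 and MTHFD2 (0.997 each). NUPR1 had BSDC1 (0.996), SLC6A9 (0.995) and CREBRF (0.994), and DDIT3 had ETS2 (0.994), EIF1B (0.993) and CCNB1IP1 (0.992). ATF4 had TMEM161B, IGF2R and KIF3C (0.993 each). ATF3 had TRAPPC6B (0.989), COQ10B (0.986) and DUSP8 (0.981), and VLDLR had PRKD3 (0.989), NAP1L1 and MYO1E (0.981 each).

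CEBPB had FAM89B (0.988), TJAP1 and ATXN2 (0.987 each), PPP1R15A had ZNF800 (0.984), DENND4C and VPS26C (0.98 each), and ATF5 had EDC4 (0.977), MBD3 (0.968) and R3HCC1 (0.967). Correlation ignores size: IGF2R ranged only from 573 to 731 CPM.

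Some members overlap other genes, and whether the counting used strand is not given in the sources used here, so their counts are less certain. ATF5 overlaps NUP62 on the other strand, which had 3981 to 7856 counts per library. DDIT3 overlaps MARS1, which had 6160 to 19662 counts. CEBPB overlaps CEBPB-AS1 (23 to 75 counts) and VLDLR overlaps VLDLR-AS1 (0 to 24 counts), both with few counts.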

How the data were processed

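Poly(A) RNA of 8 RPE-1 libraries, extracted with TRIzol and prepared with the TruSeq Stranded mRNA kit (the labels' protocols), was grouped by sample title. The authors deposited whole-number read counts per gene, not normalised, and FPKM (a level scaled by length and depth), per the file headers. For ATF4 the FPKM kept no fixed ratio to CPM. The 1 h control held 119 FPKM at 331 CPM and the 6 h control 99.3 FPKM at 188 CPM. The reason was not tested. The 8 TPM columns were left aside. The submitters' processing notes list GRCh38, HISAT2 2.1.0 and StringTie 2.1.3b with no role. Not given in the sources used here are the counter, its strand setting and the annotation release. The 10 genes and the 9 lists (110 genes, 4 of them not tested) were chosen with earlier results of these data known.

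Genes were kept by filterByExpr (minimum count 10, 4 combinations of time and atRAL), which left out 29383 of 46427. Counts were scaled by TMM and tested with edgeR 4.0.16 in R 4.3.3 (quasi-likelihood F test, robust, two-sided), adjusted by Benjamini-Hochberg over 17044 genes. Each SE given is the absolute log2 fold change divided by the square root of the F statistic. The first model fits an atRAL and an EV effect at each time (6 coefficients, leaving 2 residual degrees of freedom, biological coefficient of variation 9.66%), so any atRAL-by-EV interaction counts as spread. The second fits the 4 combinations with an EV effect for each atRAL status (again 2, and 13.9%), so a change of the EV effect over time counts as spread. It gave the change with time and the EV effect by atRAL status. Ratios of 1 library to 1 used a prior count of 2 and genes reaching 100 counts in either library, with 95% exact binomial counting intervals. DESeq2 1.42.0, limma 3.58.1 (voom, and log2 FPKM with a pseudocount of 1 or 0.1), other scalings and filters, each time alone and each library left out were alternatives. Named list genes are up to 4 with the greatest change among those called with atRAL at 6 h, and up to 2 called the other way, and further names were added after values were seen. Only the first model's test of atRAL at 6 h was tried on simulated counts, which held no EV effect. The second model and the EV tests were not tried in this way. Coordinates and promoters are RefSeq's, GRCh38.p14, and printed stretches avoid GENCODE exons.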

Additional observations from a re-analysis of the deposited data

Results flagged for a closer look

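For 8 of the 10 genes the effect of atRAL differed between 6 h and 1 h by a direct test (edgeR, adjusted p under 0.05). The differences were 6.47 on the log2 scale for ATF3, 4.703 for TRIB3, 3.118 for DDIT3, 2.503 for CEBPG, 2.266 for PPP1R15A, 1.913 for ATF4, 1.863 for NUPR1 and 1.412 for VLDLR. The libraries without atRAL also moved with time. The log2 ratio of the 6 h control to the 1 h control was -1.778 for ATF3, -1.03 for VLDLR, -0.914 for PPP1R15A, -0.82 for ATF4, -0.627 for TRIB3, -0.475 for CEBPG, -0.128 for NUPR1 and 0.066 for DDIT3. The log2 ratio of the 6 h to the 1 h atRAL library was 4.921 for ATF3, 0.101 for VLDLR, 1.736 for PPP1R15A, 1.195 for ATF4, 4.588 for TRIB3, 2.266 for CEBPG, 1.948 for NUPR1 and 3.551 for DDIT3. Each of these ratios is 1 library against 1, with no test.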

How the results depend on the processing

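No paired analysis was possible because the labels carry no replicate numbers and each condition has 1 library. Of the results given for single members, none reversed. Calls with atRAL at 6 h held under every scaling, filter and tool for 9 of the 10 genes, the other being ATF5 as given above. ATF3 lost its call when the EV terms were left out of the model, also as given above.

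Counts of all genes called moved as follows. For atRAL at 1 h (1 gene) there were 4 with relative log expression scaling, 0 with no filter, 6 with a filter at 1 CPM, 24 with DESeq2, 0 with limma-voom, 0 and 0 on log2 FPKM with a pseudocount of 1 or 0.1, 27 with the 4 libraries of that time alone and 0 without EV terms. For the difference of atRAL between times (2286) there were 1342 with no filter, 1078 and 1333 on FPKM and 1159 without EV terms. For EV at 6 h (290) there were 49 with no filter, 590 at 1 CPM, 708 with DESeq2, 21 and 48 on FPKM and 54 with that time alone. For EV at 1 h (35) there were 107 with DESeq2, 22 on FPKM with a pseudocount of 1 and 134 with that time alone. For the difference of EV between times (36) there were 4 with no filter, 83 at 1 CPM, 211 with DESeq2, 16 with limma-voom and 1 and 5 on FPKM. EV with atRAL (0) gave 14 with DESeq2, and time without atRAL (27) gave 0 with no filter, 510 with DESeq2 and 0 and 0 on FPKM.

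Counts of members moved for EV at 6 h (0) to 1 at 1 CPM, 1 with DESeq2 and 1 with limma-voom, for EV at 1 h (0) to 2, 1 and, with that time alone, 3, and for the difference of EV between times (0) to 2 and 1. For time without atRAL (2) they moved to 1 with relative log expression scaling, 0 with no filter, 1 with limma-voom and 0 and 0 on FPKM. CEBPB, not called for the difference of atRAL between times, was called with DESeq2 (adjusted p = 0.022) and limma-voom (adjusted p = 0.027).

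With 1 library left out at a time, the lone sample of a pair is assumed to vary like the other groups. Members and genes called ran from 9 to 10 and 3556 to 5427 for atRAL at 6 h, 0 to 0 and 0 to 49 for atRAL at 1 h, 4 to 10 and 209 to 3743 for their difference, 0 to 5 and 20 to 1918 for EV at 6 h, 0 to 3 and 1 to 194 for EV at 1 h, 0 to 6 and 1 to 1165 for their difference, 0 to 2 and 0 to 547 for EV with atRAL, 0 to 2 and 0 to 127 for its difference from EV without atRAL, and 0 to 6 and 0 to 1068 for time without atRAL. Without the 6 h control or the 6 h EV library, the EV effect at 6 h rests on the atRAL pair alone, 1 library against 1. It was -2.62 for ATF3, -0.82 for TRIB3 and -0.61 for NUPR1, with spread taken from 1 h only. Without either 6 h library with atRAL, which leaves the pair free of atRAL, it was -0.574, -0.04 and -0.278 in the same order. The causes of these shifts were not tested. Depth limits ATF3 most, with 43 and 66 counts at 6 h without atRAL.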
